A study of Mus musculus with 8 samples.

Results

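The genes described are 10 of the 23483 genes counted in mouse stem cells and their Sca1-sorted derivatives, taken by name because they encode matricellular and elastic-fibre proteins of the extracellular matrix. They were chosen with earlier results of these data known. They are Postn, Tnc, Tgfbi, Ccdc80, Thbs1 and Sparc on the matricellular side, and Fn1, Fbn1, Emilin1 and Eln on the side of fibres and networks. Matricellular proteins are secreted into the matrix and tune how cells adhere, move and receive growth factors rather than bearing load. Elastic fibres, in contrast, are load-bearing: a scaffold of fibrillin microfibrils, laid down with fibronectin, is filled with cross-linked elastin, and in the artery wall smooth muscle cells make them. The same microfibrils hold latent TGF-beta, and several of the matricellular genes are known targets of that growth factor.

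Poly(A) RNA was sequenced in 4 groups of 2 libraries, all from C57BL/6 mouse cells at 5.5 mM glucose, in a study of what Set7 does as stem cells become smooth muscle. The Setd7 gene encodes Set7, an enzyme that methylates lysines of histone H3 and other proteins. The first group is Sca1 cells carrying a lentiviral MISSION shRNA against Set7 (knockdown), and the second is Sca1 cells carrying the MISSION non-target shRNA vector (NTC). Both were selected with 1 µg/ml puromycin for at least a week, and each rests on a single construct. The third group is Sca1 cells for which the labels give no construct (untreated Sca1), and the last is the undifferentiated embryonic stem cells (mESC), which were kept with the cytokine LIF. All Sca1 cells had spent 4 days without LIF on gelatin, were then enriched with anti-Sca1 magnetic beads, and were expanded without LIF. The labels name no clones and do not say that replicates were separate cultures, so every p below measures only the spread between these libraries. The single shRNA target is shown because the knockdown rests on it.
Set7 shRNA target: ccgtgttcagagataccaaat

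Levels are counts scaled to library size and composition (CPM), log2 fold changes carry a standard error (SE), and a change is called at an adjusted p of 0.05 in edgeR's quasi-likelihood test, with Benjamini-Hochberg adjustment over the 13966 genes tested. Gene counts summed to between 2507938 and 5080266 per library. Replicates differed by more than counting noise, with a chi-square per degree of freedom of 2.09 between the knockdown libraries, 1.54 between NTC libraries, 40.3 between untreated Sca1 libraries and 54.4 between mESC libraries. The test shares its estimate of each gene's spread over all groups, so p in any comparison also depends on libraries outside it. Setd7 had 14.0 and 10.7 CPM in knockdown libraries, against 60.6 and 66.5 CPM in NTC libraries, a log2 change of -2.39 ± 0.20 (SE, adjusted p = 1.71e-07, edgeR). Ly6a, which encodes Sca1, was low throughout, with 9.78 and 12.5 CPM in knockdown, 5.42 and 6.45 CPM in NTC, 12.9 and 4.41 CPM in untreated Sca1 and 9.82 and 5.71 CPM in mESC libraries, so the sorted groups did not stand above the stem cells in the RNA of the sort marker. In bulk RNA of this kind, fewer cells of a type and less RNA per cell cannot be told apart.

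The matrix genes formed a class with a shared pattern and a class without it. Postn, Tnc, Tgfbi, Ccdc80, Thbs1, Fbn1 and Emilin1 were high in NTC cells, intermediate in untreated Sca1 cells and low in knockdown cells and mESC. Fn1 and Sparc were abundant in every group, with group means of Fn1 highest in NTC cells and of Sparc highest in mESC, and Eln was near the detection limit in every group. All 10 genes passed the filter on low counts. Per kilobase of transcript, Fn1 and Sparc together made up 97.8% of the summed level of the 10 genes in knockdown cells, 79.8% in NTC cells, 84.2% in untreated Sca1 cells and 99.0% in mESC. The other 8 genes therefore held 2.20% of it in knockdown cells and 20.2% in NTC cells. The 10 genes took 0.255% and 0.230% of all counts in the knockdown libraries, 0.464% and 0.452% in the NTC libraries, 0.278% and 0.208% in the untreated Sca1 libraries and 0.283% and 0.257% in the mESC libraries, so that NTC cells stood apart from the other groups in this share.

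**Figure D1:**
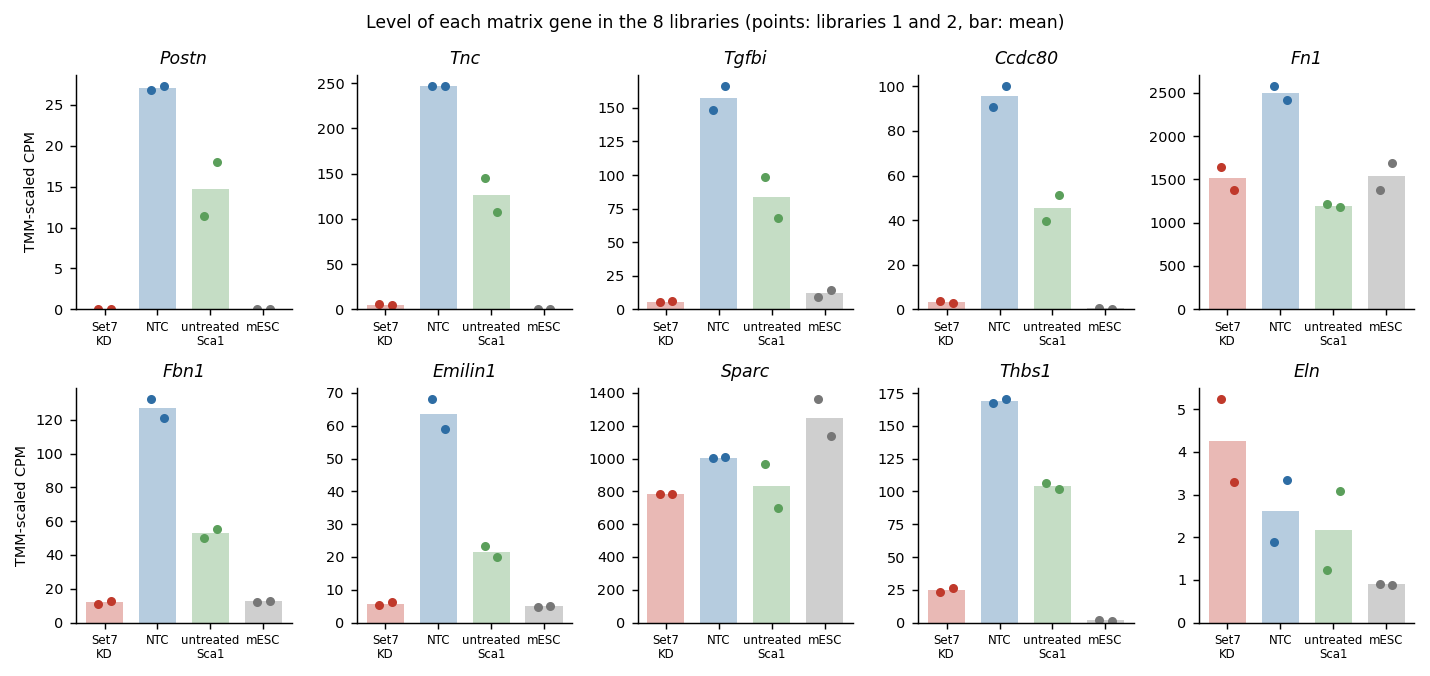
Level of each matrix gene in CPM, on a linear axis from 0 that differs between panels, by group; each point is 1 library and each bar the mean of 2. Tnc sits at 5.94 and 4.17 CPM in knockdown libraries and at 247 CPM in both NTC libraries, while Sparc lies between 696 CPM in an untreated Sca1 library and 1363 CPM in an mESC library.

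Among the matricellular genes, Postn encodes periostin, an integrin-binding protein of the fasciclin family made by matrix-producing mesenchymal cells. It had 0 counts in both knockdown libraries, 26.9 and 27.4 CPM in NTC libraries, 11.4 and 18.1 CPM in untreated Sca1 libraries and 0 counts in both mESC libraries. The knockdown and mESC groups were thus alike in holding no read of it, where 3 counts over the group would have stood at 0.404 CPM in knockdown cells and 0.336 CPM in mESC. Its 3 counted transcripts (NM_001198765, NM_001198766 and NM_015784, chromosome 3) had identical counts, so its splice forms could not be told apart.

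Tnc, on chromosome 4 (NM_011607), encodes tenascin-C, a large anti-adhesive glycoprotein of growing and injured tissue. It had 5.94 and 4.17 CPM in knockdown libraries, 247 and 247 CPM in NTC libraries, 146 and 108 CPM in untreated Sca1 libraries, and 0 and 0.220 CPM in mESC libraries, where a single read was seen in all. The 4 groups did not overlap, in the order NTC, untreated Sca1, knockdown, mESC. Thbs1 (NM_011580, chromosome 2) encodes thrombospondin-1, which binds CD36, CD47 and integrins and can activate latent TGF-beta, and it kept the same order. Its levels were 23.4 and 26.5 CPM in knockdown, 167 and 171 CPM in NTC, 107 and 102 CPM in untreated Sca1 and 1.83 and 1.54 CPM in mESC libraries. Ccdc80 (NM_026439, chromosome 16), a secreted matrix-associated protein also studied in fat cell differentiation, followed it too. It had 3.49 and 2.85 CPM in knockdown, 90.8 and 100 CPM in NTC, 39.8 and 51.1 CPM in untreated Sca1 and 0.457 and 0.220 CPM in mESC libraries.

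Tgfbi (NM_009369, chromosome 13) encodes a fasciclin protein related to periostin and named for its induction by TGF-beta. It had 5.24 and 6.14 CPM in knockdown, 148 and 167 CPM in NTC, 98.3 and 68.3 CPM in untreated Sca1 and 9.14 and 14.5 CPM in mESC libraries. Unlike the preceding genes it was lower in knockdown cells than in mESC, with no overlap. Sparc (NM_009242, chromosome 11) encodes a collagen-binding glycoprotein that basement-membrane-producing cells also make in quantity. Its levels were 783 and 784 CPM in knockdown, 1003 and 1009 CPM in NTC, 964 and 696 CPM in untreated Sca1 and 1363 and 1136 CPM in mESC libraries. Sparc was the only one of the 10 genes that was highest in mESC, and the untreated Sca1 libraries lay on either side of the knockdown libraries.

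Of the fibre and network genes, Fn1 (NM_010233, chromosome 1) encodes fibronectin, the adhesive glycoprotein on which other matrix fibres assemble. It had 1643 and 1380 CPM in knockdown, 2582 and 2417 CPM in NTC, 1211 and 1183 CPM in untreated Sca1 and 1381 and 1694 CPM in mESC libraries. NTC cells stood above all others, knockdown libraries overlapped mESC, and untreated Sca1 libraries were lowest. Fbn1 (NM_007993, chromosome 2) encodes fibrillin-1, the main microfibril protein, with 11.2 and 12.7 CPM in knockdown, 132 and 121 CPM in NTC, 50.3 and 55.5 CPM in untreated Sca1 and 12.3 and 12.7 CPM in mESC libraries. Emilin1 (NM_133918, chromosome 5) encodes a protein found where elastin meets microfibrils, with 5.24 and 6.14 CPM in knockdown, 68.1 and 59.2 CPM in NTC, 23.4 and 19.8 CPM in untreated Sca1 and 4.80 and 5.05 CPM in mESC libraries. For both, knockdown cells and mESC stood at nearly the same low level. Eln (NM_007925, chromosome 5), which encodes tropoelastin, the soluble precursor of elastin, had 5.24 and 3.29 CPM in knockdown, 1.89 and 3.34 CPM in NTC, 1.23 and 3.09 CPM in untreated Sca1 and 0.914 and 0.878 CPM in mESC libraries. Those levels rest on 15 and 15 counts in the knockdown libraries and on 4 to 15 counts in each of the others.

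The sequence just upstream of a gene's start was available from RefSeq (GRCm38.p6) for 6 of the 10 genes. The 250 bases before the start are printed for the 4 genes whose start lay within 10 bases of the annotated end of the counted transcript, 3 that were low in knockdown cells (Postn, Tnc, Tgfbi) and 1 that was not called (Sparc). All are read 5′ to 3′ in the direction of the gene, and capitals mark matches, on either strand, to TATAAA, the start-site element of a minority of promoters, to CAGAC, which SMAD proteins bind, or to GGGCGG, which Sp1 binds.
Postn, chr3:54360857-54361106, plus strand: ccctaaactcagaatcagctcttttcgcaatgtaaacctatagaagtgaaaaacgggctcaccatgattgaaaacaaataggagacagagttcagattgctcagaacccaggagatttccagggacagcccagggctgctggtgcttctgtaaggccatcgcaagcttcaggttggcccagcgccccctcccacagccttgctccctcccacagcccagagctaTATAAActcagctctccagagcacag
Tnc, chr4:64047016-64047265, minus strand: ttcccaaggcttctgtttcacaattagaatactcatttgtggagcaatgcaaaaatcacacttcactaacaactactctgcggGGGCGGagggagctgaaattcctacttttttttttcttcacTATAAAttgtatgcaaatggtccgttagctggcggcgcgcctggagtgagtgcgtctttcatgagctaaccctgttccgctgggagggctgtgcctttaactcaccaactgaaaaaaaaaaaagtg
Tgfbi, chr13:56609336-56609585, plus strand: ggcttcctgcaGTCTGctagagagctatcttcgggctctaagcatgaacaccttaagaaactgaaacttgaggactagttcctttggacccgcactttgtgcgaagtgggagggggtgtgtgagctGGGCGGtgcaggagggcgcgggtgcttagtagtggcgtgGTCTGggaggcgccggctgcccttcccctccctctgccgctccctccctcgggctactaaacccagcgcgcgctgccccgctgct
Sparc, chr11:55420081-55420330, minus strand: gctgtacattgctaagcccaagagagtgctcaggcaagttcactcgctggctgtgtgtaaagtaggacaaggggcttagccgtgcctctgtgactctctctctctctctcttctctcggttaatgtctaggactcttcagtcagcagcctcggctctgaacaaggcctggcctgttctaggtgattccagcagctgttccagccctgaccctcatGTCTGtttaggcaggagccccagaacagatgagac

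Postn carried TATAAA from -26 to -21, counted back from the start, and Tnc carried it from -126 to -121 with a GGGCGG at -167. Tgfbi held CAGAC on the opposite strand at -239 and -85 and a GGGCGG at -124, and Sparc held CAGAC on the opposite strand at -35. Over 32851 such windows of all genes, 12.4% held TATAAA, 42.2% CAGAC and 32.7% GGGCGG. Among the 6 matrix genes with a window, the counts were 2, 3 and 3, the further matches being in Fbn1 (GGGCGG) and Emilin1 (CAGAC). None of the 6 held TGANTCA, which AP-1 binds, GGAATG, which TEAD proteins bind, or a CArG box, which 6.75%, 12.6% and 1.47% of all windows held. The matches describe letters and not bound sites.

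Set against NTC cells, Set7 knockdown cells had less of 8 of the 10 matrix genes, and none of the 10 rose. Over all genes tested, 10.1% were called lower and 4.25% higher, 29.7% of the calls being higher against 18.4% when libraries were scaled by their totals alone. The median log2 change of the 10 genes was -3.42, beside 0 over all genes tested. Against the same NTC cells 7 of the 10 were lower by over 2-fold, where 5.7% of all genes tested were, and in 9 the libraries did not overlap, where 32.9% of all genes tested lay lower in the same way. Because the genes were chosen with earlier results of these data known, the shares are a description and not a test.

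The deepest change of the 10 genes was in Postn, which was at least 67.1-fold lower in knockdown than in NTC cells when 3 counts are allowed over the knockdown group, with 0 and 237 counts (adjusted p = 7.45e-08, edgeR). Tnc fell by 5.65 ± 0.21 on the log2 scale (SE, adjusted p = 4.88e-12), which left it at 2.05% of the NTC level. Ccdc80 fell by 4.93 ± 0.24 (adjusted p = 1.46e-10) and Tgfbi by 4.76 ± 0.24 (adjusted p = 2.94e-10). Thrombospondin-1 was less affected among the matricellular genes, as Thbs1 fell by 2.74 ± 0.14 (adjusted p = 2.95e-10) and kept 14.8% of the NTC level.

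Among the microfibril genes, Fbn1 fell by 3.39 ± 0.17 (adjusted p = 2.09e-10) and the log2 change of Emilin1 was -3.45 ± 0.21 (adjusted p = 3.88e-09), to 9.43% and 8.94% of the NTC level. Fibronectin was lower by far less, with a fall in Fn1 of 0.73 ± 0.14 (adjusted p = 0.00140), to 60.5% of NTC. That call was lost without the second knockdown library (adjusted p = 0.0839, the range over the alternatives being 2.55e-11 to 0.105). The abundant Sparc, at 77.8% of NTC, had a log2 difference of -0.36 ± 0.15 that was not called (adjusted p = 0.123, 95% interval -0.67 to -0.05). It was called without either mESC library, when only the compared groups were fitted, and with the description number as a replicate block, with adjusted p of 7.94e-06 to 0.754 over the alternatives. Eln was not called at 0.64 ± 0.48 (adjusted p = 0.435), and its libraries overlapped.

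With untreated Sca1 cells in place of NTC as the control of the knockdown, 7 of the 10 genes were called lower and 0 higher, where 9.89% of all genes tested were called lower and 7.34% higher. Postn was among them, with 0 counts in knockdown cells and 78 in untreated Sca1 cells. Tnc then differed by -4.70, Tgfbi by -3.86, Ccdc80 by -3.84, Fbn1 by -2.12, Thbs1 by -2.05 and Emilin1 by -1.91 on the log2 scale. Fn1 changed sign, at 0.34 higher in knockdown than in untreated cells and not called (adjusted p = 0.105). The fall of fibronectin was thus seen against NTC cells and not against untreated Sca1 cells, whereas the falls of Postn, Tnc, Tgfbi, Ccdc80, Fbn1, Emilin1 and Thbs1 were seen against both.

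**Figure D2:**
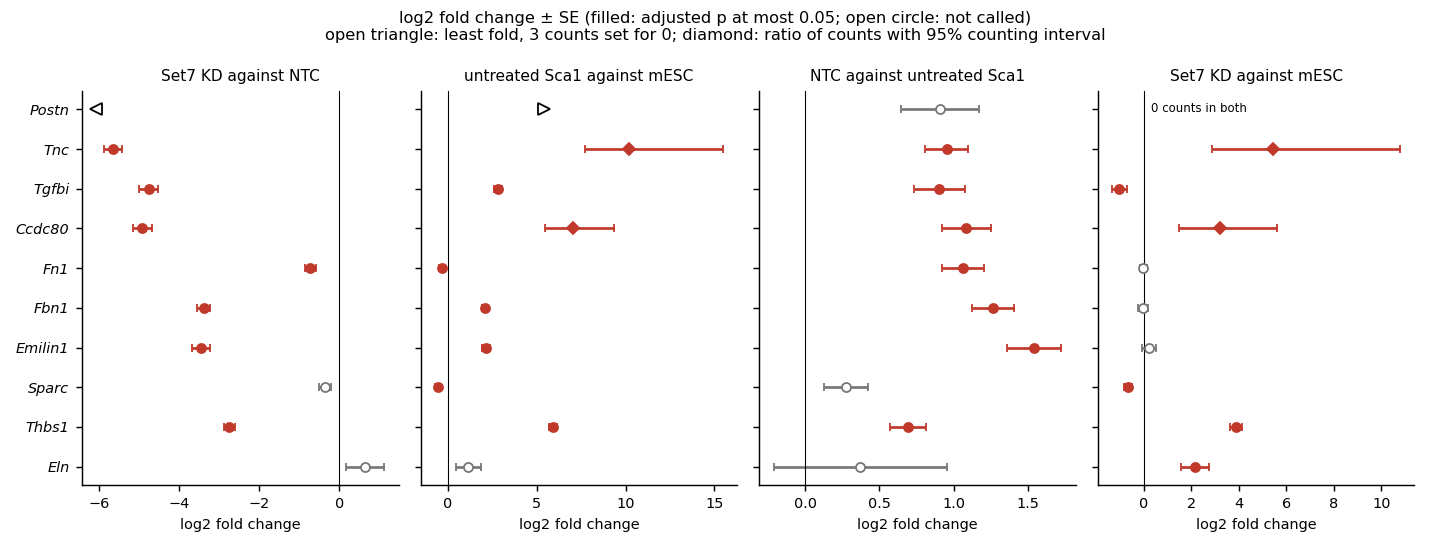
Log2 fold change of each matrix gene in the comparisons named in the panel titles, with bars for the SE; filled circles passed an adjusted p of 0.05 and open ones did not, triangles mark the least fold of Postn where a group had 0 counts, and diamonds the count ratio of Tnc and Ccdc80 against mESC with its 95% counting interval. Axis ranges differ between panels. Tnc lies at -5.65 in knockdown against NTC cells and Sparc at -0.36, while Fn1 in knockdown cells against mESC lies at -0.03.

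Between untreated Sca1 cells and mESC, which spans loss of LIF, the sort and expansion, 7 of the matrix genes rose and Fn1 and Sparc fell. Of all genes tested, 18.7% were called higher and 16.8% lower. The 10 genes had a median log2 change of 2.48, beside -0.01 over all genes. Postn was at least 42.1-fold higher in untreated Sca1 cells, with 78 and 0 counts. For Tnc, the ratio of counts scaled to library size was 1162 (95% counting interval 208 to 45958), with 717 counts in untreated Sca1 cells and 1 in mESC. Beyond that single count, neither gene was read in mESC.

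Ccdc80 had a count ratio of 132 between untreated Sca1 cells and mESC (95% counting interval 44.8 to 646), and Thbs1 rose by 5.93 ± 0.22 on the log2 scale (adjusted p = 3.07e-12, edgeR). Tgfbi, Emilin1 and Fbn1, which stem cells already expressed, rose less, by 2.83 ± 0.21 (adjusted p = 2.28e-08), 2.14 ± 0.25 (adjusted p = 2.59e-06) and 2.07 ± 0.17 (adjusted p = 6.47e-08). Sparc fell by 0.59 ± 0.15 (adjusted p = 0.00507) and Fn1 by 0.36 ± 0.14 (adjusted p = 0.0492). The call on Fn1 was lost in 11 of 16 alternative analyses, with adjusted p from 0.00229 up to 0.208, and that on Sparc with library totals only (0.0674) and without the second untreated Sca1 library (0.0845), the lowest over its alternatives being 3.54e-06. Eln was not called, at 1.15 ± 0.71 (adjusted p = 0.224).

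NTC cells differ from untreated Sca1 cells by a control vector and puromycin selection. Their unexplained label codes differ in part too, being 12 and 34 for NTC and 34 and 56 for untreated Sca1 libraries. Between them, 7 of the 10 genes were higher in NTC cells while none was lower. Of all genes tested, 3.88% were called higher and 1.1% lower. The calls were 77.9% higher, and 96.5% higher when libraries were scaled by totals alone. Emilin1 rose by 1.54 ± 0.18 on the log2 scale (SE, adjusted p = 0.000129, edgeR), Fbn1 by 1.27 ± 0.14 (adjusted p = 9.33e-05) and Ccdc80 by 1.08 ± 0.17 (adjusted p = 0.00120). Fn1 rose by 1.06 ± 0.14 (adjusted p = 0.000338). These 4 genes exceeded 2-fold, as did 0.752% of all genes tested.

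Smaller rises were found in NTC cells over untreated Sca1 cells for Tnc (0.95 ± 0.14, adjusted p = 0.00115), Tgfbi (0.90 ± 0.17, adjusted p = 0.00563) and Thbs1 (0.69 ± 0.12, adjusted p = 0.00373, edgeR). The call on Tgfbi was lost without either NTC library (adjusted p = 0.0643 and 0.119) or without the second untreated library (0.0629), the lowest over its alternatives being 2.34e-07. That on Thbs1 was lost without either NTC library (0.0912 and 0.0905), against 8.40e-05 at the lowest. Postn, at 0.91 ± 0.26, narrowly missed the threshold (adjusted p = 0.0581) and passed it in 7 alternatives, the range over all being 0.00878 to 0.350. Sparc was not called at 0.28 ± 0.15 (adjusted p = 0.311), and neither was Eln at 0.37 ± 0.58 (adjusted p = 0.777). The NTC libraries are also the control of the knockdown, and the untreated Sca1 libraries also enter the comparison with mESC, so these comparisons are not independent.

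Knockdown cells and mESC, set side by side, were alike in some matrix genes and far apart in others. Of all genes tested, 13.5% were called higher in knockdown cells and 12.4% lower, and 52.1% of calls were higher, or 64.0% with library totals only, a scaling that moved the median of all genes by 0.105 on the log2 scale. Tnc, Ccdc80, Thbs1 and Eln were higher in knockdown cells, Tgfbi and Sparc were lower, and Fbn1, Emilin1 and Fn1 were not called. Thbs1 was 3.88 ± 0.26 higher on the log2 scale (adjusted p = 9.14e-09, edgeR). The count ratio of Tnc was 43.3 (95% counting interval 7.30 to 1758) and that of Ccdc80 was 9.23 (2.79 to 48.0). So Tnc, Ccdc80 and Thbs1 stood above the stem cell level in knockdown cells even though each had fallen steeply against NTC cells.

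Fbn1 differed by -0.05 between knockdown cells and mESC (95% interval -0.49 to 0.38), Emilin1 by 0.23 (-0.39 to 0.85) and Fn1 by -0.03 (-0.31 to 0.26), differences that changed sign for Fbn1 and Fn1 when libraries were scaled by totals alone. Tgfbi was lower by 1.03 ± 0.31 on the log2 scale (adjusted p = 0.0194, edgeR), although 4 alternatives lost the call, with adjusted p from 0.00140 up to 0.220. Sparc fell by 0.67 ± 0.15 (adjusted p = 0.00263), a call lost with library totals only (0.0713) and, narrowly, without the second knockdown library, against 1.34e-06 at the lowest. Eln was 2.16 ± 0.58 higher in knockdown cells (adjusted p = 0.0104), from 30 and 8 counts, and the call was lost with DESeq2 (0.0609) and without the first knockdown library (0.109), against 0.00237 at the lowest. Postn had no count in either group, so no change could be given.

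The label codes 12, 34 and 56 that the libraries carry mark something shared between libraries that the labels do not explain. The called genes had libraries that did not overlap, which fixes the sign of any difference within a code, so only sizes are given. In knockdown against NTC cells the log2 difference of Tnc was -5.26 and -5.72 within codes 12 and 34, and that of Fn1 was -0.65 and -0.81. In untreated Sca1 cells against mESC that of Tgfbi was 3.36 and 2.20 within codes 34 and 56. The other comparisons share code 34 alone, in which Emilin1 was 1.32 higher in NTC than in untreated Sca1 cells and Thbs1 3.53 higher in knockdown cells than in mESC.

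The genes were also followed with their partners in the matrix. The counts in these lists stand against the shares of all genes tested that were called higher and lower, which were 4.25% and 10.1% in knockdown against NTC cells, 18.7% and 16.8% in untreated Sca1 cells against mESC, 3.88% and 1.1% in NTC against untreated Sca1 cells, and 13.5% and 12.4% in knockdown cells against mESC. Of 23 tested partners of elastic fibres and microfibrils (25 listed), 13 fell in knockdown against NTC cells and none rose, with a median log2 change of -1.32. Fbn2, which encodes the fibrillin of developing tissue, fell by 4.25 ± 0.18 (adjusted p = 1.72e-11, edgeR), to 11.5 and 8.99 CPM in knockdown libraries against 207 and 175 CPM in NTC libraries. Ltbp1, which tethers latent TGF-beta to microfibrils, fell by 2.41 ± 0.16. Fbln2, a fibulin that binds fibronectin and fibrillin, stood at -2.57 ± 0.18 and Efemp2, a fibulin needed to build elastic fibres, at -1.53 ± 0.21. The elastin cross-linking enzyme genes Lox and Loxl1 and the fibulin gene Fbln5 were named after their values were seen. They differed by -3.20 ± 0.74, -2.81 ± 0.44 and -3.53 ± 0.73 and were called too. In knockdown libraries levels were near the detection limit, at 0.699 and 0.219 CPM for Lox and 0 and 0.877 CPM for Fbln5. Loxl1 had 2.80 and 0.877 CPM there. The fibulin genes Fbln1 (-0.27, adjusted p = 0.160) and Efemp1 (0.36, adjusted p = 0.497, edgeR), likewise named afterwards, were not called. In untreated Sca1 cells against mESC 12 of the 23 rose and 3 fell, and Fbn2 rose by 4.18 ± 0.21 and Fbln2 by 3.66 ± 0.23. NTC cells exceeded untreated Sca1 cells in 5 and fell below them in none, and knockdown cells against mESC had 7 higher and 2 lower, the lower ones being Ltbp4 (-1.05 ± 0.13) and Mmrn2 (-1.33 ± 0.17).

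Of 16 tested relatives of the matricellular genes (22 listed), 6 fell in knockdown against NTC cells and none rose. They included Ccn1, an integrin-binding protein, at -1.43 ± 0.13 (adjusted p = 2.56e-07), Ccn4 at -3.40 ± 0.39, Thbs2, the thrombospondin closest to Thbs1, at -1.89 ± 0.33, and Sparcl1, the nearest relative of Sparc, at -4.00 ± 0.47. Sparcl1 was thus called where Sparc was not. Ccn2, named after its values were seen, was not called at 0.22 (adjusted p = 0.346), nor was Spp1, which encodes osteopontin, at -0.14 (adjusted p = 0.512). The list's median was -0.57. In untreated Sca1 cells against mESC 11 of the 16 rose and 3 fell, where Ccn1 rose by 1.93 ± 0.14 and Ccn4 by 4.92 ± 0.47 while Spp1 fell by 1.84 ± 0.12. NTC cells were higher than untreated Sca1 cells in 2 (Ccn1 and Thbs3), and knockdown cells against mESC were higher in 8 and lower in 3.

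Receptors of the matrix proteins moved with them in part. Of 14 tested (16 listed), 9 fell and 1 rose in knockdown against NTC cells. The scavenger and thrombospondin receptor Lrp1 fell by 2.73 ± 0.16 (adjusted p = 2.01e-09), and the integrin subunits Itgav and Itgb1 stood at -1.58 ± 0.15 and -1.36 ± 0.13 and the hyaluronan receptor Cd44 at -2.35 ± 0.26 (edgeR). The 1 that rose was Sdc4, a syndecan that binds fibronectin, at 0.61 (adjusted p = 0.00329), named after its values were seen. Itga5, the partner of Itgb1 in the fibronectin receptor and likewise named afterwards, was not called at -0.27 (adjusted p = 0.183). Untreated Sca1 cells against mESC had 7 higher and 3 lower, NTC against untreated Sca1 cells 5 and 0, and knockdown cells against mESC 2 and 5, the last 2 being a share near the 13.5% of all genes called higher there.

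Of the 12 TGF-beta ligands, receptors, SMAD proteins and feedback targets, 6 fell in knockdown against NTC cells and none rose. The ligand genes were Tgfb2 at -3.31 ± 0.24 (adjusted p = 2.44e-08), Tgfb3 at -2.45 ± 0.47 and Tgfb1 at -1.07 ± 0.28 (edgeR). Tgfb2 had 5.94 and 7.46 CPM in knockdown, 70.0 and 65.8 CPM in NTC, 38.2 and 37.9 CPM in untreated Sca1 and 0 and 0.878 CPM in mESC libraries, the same order of groups as Tnc. The feedback genes Smad7 and Skil, named after their values were seen, were not called at 0.21 (adjusted p = 0.343) and 0.02 (adjusted p = 0.950). In untreated Sca1 cells against mESC 6 of the 12 rose and none fell, in NTC against untreated Sca1 cells 1 rose and none fell, and in knockdown cells against mESC 5 were higher and 1 lower.

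**Figure D3:**
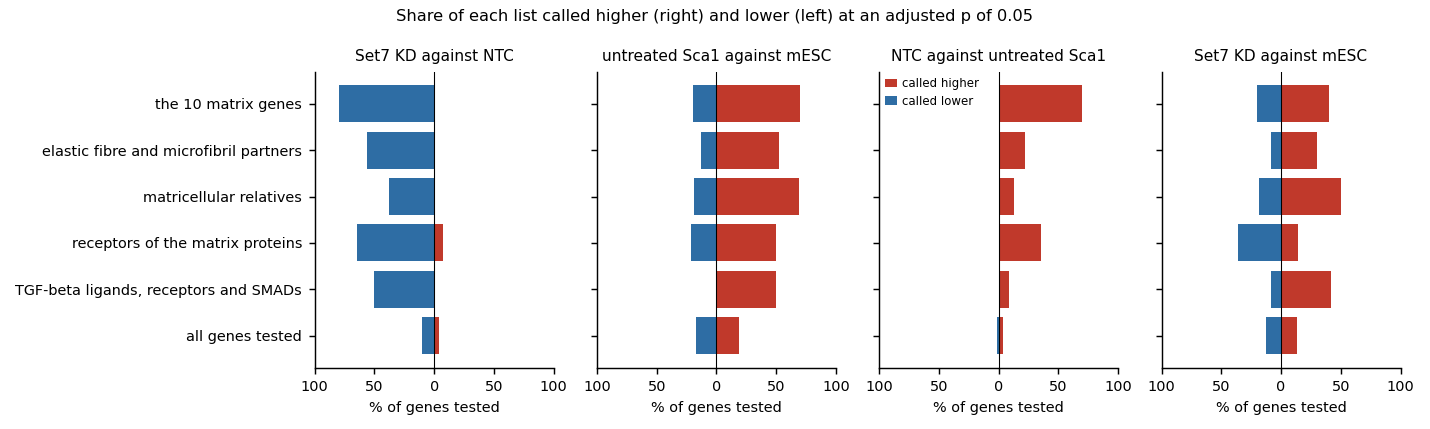
Percent of genes called higher (right of 0) and lower (left of 0) among the 10 matrix genes, their fibre partners, matricellular relatives, receptors and TGF-beta genes, and among all genes tested, by comparison. In knockdown against NTC cells the called shares of the matrix genes and their lists lie almost wholly on the lower side, with 13 of 23 fibre partners lower and 0 higher. Over all genes tested 10.1% were lower and 4.25% higher.

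Among markers of cell types that the cultures could hold, the fibroblast and mesenchyme list followed the order of the patterned matrix genes in its sum. Collagen genes made up most of that sum in NTC and untreated Sca1 cells. Other lists followed the order in part or not at all. Summed over the fibroblast and mesenchyme list, levels were 190 to 198 CPM in knockdown, 1976 to 2037 CPM in NTC, 873 to 932 CPM in untreated Sca1 and 227 to 255 CPM in mESC libraries. That is the order NTC, untreated Sca1, then the rest, as in the 7 patterned matrix genes. In knockdown against NTC cells 8 of the list's 9 tested genes fell, where 10.1% of all genes tested were called lower. Among them were Col3a1 at -6.60 ± 0.16 (adjusted p = 1.05e-14) and Pdgfrb at -2.30 ± 0.26 (edgeR). Col1a1, Col1a2 and Col3a1 of that list are themselves matrix genes, and the order of the sums rests on them. In the first NTC library they stood at 787, 302 and 655 CPM. Pdgfra was instead highest in mESC, at 227 and 204 CPM against 164 and 174 CPM in NTC libraries. Besides the collagens, Pdgfra and Pdgfrb were called higher in NTC than in untreated Sca1 cells, while Twist1, Prrx1, Dcn and Thy1 were not called. Dcn, Lum and Prrx1 were at 0 in both mESC libraries. Smooth muscle markers summed to 181 to 185 CPM in knockdown, 633 to 657 CPM in NTC, 638 to 1021 CPM in untreated Sca1 and 41.5 to 50.2 CPM in mESC libraries, with 6 of 8 lower in knockdown against NTC cells. Between NTC and untreated Sca1 cells 0 of 8 smooth muscle markers were called higher and 1 lower, where 3.88% and 1.1% of all genes tested were. In so short a list, 0 called higher is near the share of all genes.

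Basement-membrane-making parietal endoderm, which also expresses Sparc strongly, had marker sums of 3433 to 3589 CPM in knockdown, 5746 to 6002 CPM in NTC, 3221 to 3965 CPM in untreated Sca1 and 7137 to 7240 CPM in mESC libraries. Those sums, made up mostly of laminin and type IV collagen genes, order the groups as Sparc does, with mESC highest and NTC next. Single markers differed from this order. In untreated Sca1 cells against mESC 3 of the 9 were called higher (Plat, Thbd and Snai1) and 6 lower, beside 18.7% and 16.8% of all genes tested. Plat stood at 47.2 and 48.7 CPM in NTC libraries and at 8.22 and 4.39 CPM in mESC libraries. In knockdown against NTC cells 7 of the 9 parietal endoderm markers fell and 1 rose, where 10.1% and 4.25% of all genes tested did. The pluripotent list stood at 3012 to 3230 CPM in knockdown, 2344 to 2420 CPM in NTC, 2265 to 2570 CPM in untreated Sca1 and 3590 to 3935 CPM in mESC libraries, so stem cell markers stayed on in the sorted groups. In untreated Sca1 cells against mESC 6 of its 9 genes were called lower and 0 higher, where 16.8% and 18.7% of all genes tested were. Tdgf1 was among the lower ones, at -1.86 ± 0.15. Knockdown cells against mESC had 4 lower and 2 higher, beside 12.4% and 13.5% of all genes tested. Blood and macrophage markers were nearly absent, at 2.63 to 7.02 CPM over all libraries. The part of cell makeup in the changes of the matrix genes was not tested.

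The other marker lists were read in all groups. Their counts of calls between knockdown and NTC cells stand against 4.25% of all genes tested called higher and 10.1% lower. Visceral endoderm markers summed to 475 to 538 CPM in knockdown and 445 to 448 CPM in NTC libraries, 186 to 249 CPM in untreated Sca1 and 761 to 813 CPM in mESC libraries. Endothelial markers stood at 148 to 161 CPM in knockdown, 146 to 156 CPM in NTC, 92.1 to 94.7 CPM in untreated Sca1 and 259 to 260 CPM in mESC libraries, and none of 6 tested was called between knockdown and NTC cells. Trophoblast markers stood at 251 to 257 CPM in knockdown, 284 to 288 CPM in NTC, 269 to 316 CPM in untreated Sca1 and 34.5 to 39.1 CPM in mESC libraries. Neural markers summed to 116 to 122 CPM in knockdown, 253 to 286 CPM in NTC, 245 to 257 CPM in untreated Sca1 and 105 to 122 CPM in mESC libraries. Their sums were thus also high in NTC and untreated Sca1 cells and low in the others, an order that rests on Nes. Nes had 42.6 and 35.5 CPM in knockdown and 193 and 163 CPM in NTC libraries. It had 176 and 159 CPM in untreated Sca1 and 10.5 and 7.90 CPM in mESC libraries. Of 5 neural markers tested, 2 were lower and 1 higher in knockdown against NTC cells.

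**Figure D4:**
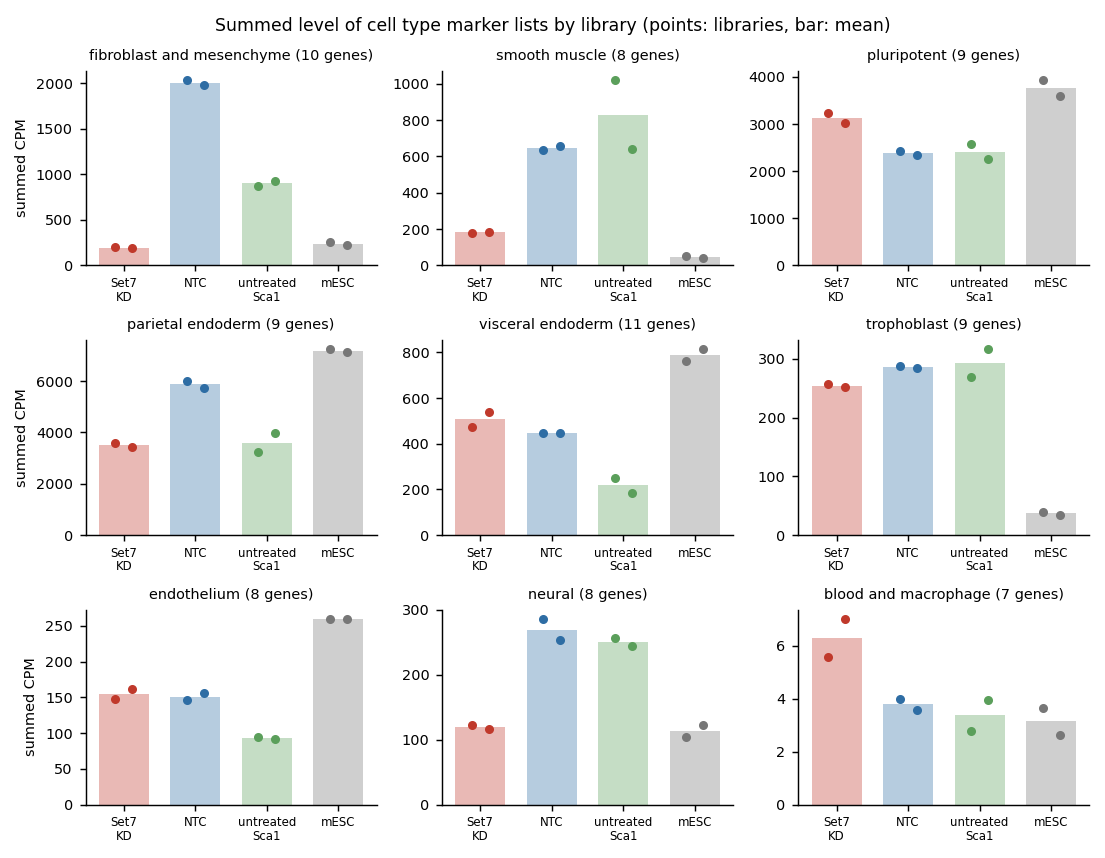
Summed CPM of each cell-type marker list, on a linear axis from 0 that differs between panels, by group; each point is 1 library and each bar the mean of 2. The fibroblast and mesenchyme sum lies at 190 to 198 CPM in knockdown libraries and at 1976 to 2037 CPM in NTC libraries, while the pluripotent sum lies between 2265 and 3935 CPM over all libraries.

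As a description over the same 8 libraries, the log2 levels of Fbn1 and Emilin1 had a Pearson r of 0.99, as did those of Tnc and Ccdc80, and Postn and Fbn1 had 0.98. Fn1 had at most 0.57 with any other of the 10 genes, and Sparc and Eln had -0.79. The 8 points are 4 pairs of replicates and not independent conditions. Among 11185 other genes with at least 10 CPM in their highest group, the closest to Tnc were Tmem119, P3h4 and Col3a1 (r = 0.999, 0.998 and 0.997). Closest to Ccdc80 were Col3a1, Smo and Tril, and to Thbs1 Col1a2, Pcdh18 and Hoxb3. Fbn1 and Emilin1 had each other and Nt5c3b among their closest 3, joined by Gpc3 and Bmp1. For Postn they were Ltbr, D430042O09Rik and Col11a1, and for Tgfbi Boc, Prrx2 and Golim4. Fn1 lay closest to Qsox2, Ptgfrn and Gm10677, Sparc to Dusp27, Rbck1 and Naa80, and Eln to Mrpl38, Tomm34 and Ryr3. A fibrillar collagen gene was among the closest 3 for Tnc, Ccdc80, Thbs1 and Postn.

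Reads of an antisense neighbour could be mixed into some of these counts, because the strand of the libraries is not given in the sources used here. Annotated antisense exons cover 176 of 7100 exon bases of Tnc (8030451A03Rik), 397 of 9847 of Fbn1 (Gm9913), 187 of 5848 of Thbs1 (Gm29233), 152 of 3853 of Eln (Gm30003) and 267 of 8315 of Fn1 (Apol7d). Apol7d, the only one of these counted on its own, had 0 to 16 counts per library, against 2683 to 10948 for Fn1.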

How the data were processed

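The authors deposited a table of whole-number read counts for 29614 RefSeq transcripts in 8 libraries, and judged from the values no scaling had been applied. Per the submitters' processing notes, BWA 0.5.9, SAMtools 0.1.17 and edgeR 0.19 were used. Sources used here do not give their roles, the build, the counting program or the strand. Names came from a RefSeq table for 28985 transcripts and from GENCODE for 173, and 456 kept their accession. Each of 23483 genes was represented by its transcript of highest total. Members and lists were chosen with earlier results of these data known.

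After filterByExpr and TMM scaling, counts were fitted in R 4.3.3 with edgeR 4.0.16, 1 mean per group over all 8 libraries (4 residual degrees of freedom, common dispersion 0.0133), with robust quasi-likelihood tests and p-values adjusted by Benjamini-Hochberg over 13966 genes. Each SE is the log2 change divided by the root of its F. A member with 0 counts in a group was given a bound with 3 counts there. One with 1 to 3 counts was given a scaled count ratio and its exact 95% interval, which covers counting error only. List genes kept the edgeR value at any count. Named genes are the 10 members, Setd7, in each list up to 4 called genes with the smallest p (1 is not reported here), and the 3 genes most correlated with each member in log2 CPM (prior count 2). The code was tested on simulated counts. Alternatives were RLE factors, library totals, DESeq2 1.42.0, no filter, at least 5 CPM in 2 libraries, all transcripts, the compared groups only, the description number as a replicate block, untreated Sca1 cells as the knockdown control, and fits without each library in turn.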

Additional observations from a re-analysis of the deposited data

How the results depend on the processing

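Over 39 results on single matrix genes and 629 alternative values, 583 kept direction and side of the threshold, 27 lost the call, 11 gained it and 8 changed sign. The sign changes were of values not called, except that of Fn1 under the other control. Fn1 in knockdown cells against mESC stood at 0.088 with library totals, and at -0.16 to 0.13 when each library was left out (positive without mESC replicate 2 and without knockdown replicate 2). Fbn1 there stood at 0.054 with library totals, and at -0.16 to 0.029 when each was left out (positive without knockdown replicate 1). Eln in NTC against untreated Sca1 cells stood at -0.23 to 1.07 (negative without NTC replicate 2 and without untreated Sca1 replicate 1). Fn1 in knockdown cells stood at 0.34 against untreated Sca1 cells as control, with a call against NTC cells. Matrix genes called lower in untreated Sca1 cells against mESC were 2, but 1 with RLE factors, a filter at 5 CPM or the compared groups only, and 0 with library totals. In knockdown cells against mESC the 2 called lower became 0 with library totals. Leaving out each library in turn gave 7 to 9 matrix genes lower and 0 higher in knockdown against NTC cells, always 7 higher and 0 to 2 lower in untreated Sca1 cells against mESC, 5 to 8 higher and 0 lower in NTC against untreated Sca1 cells, and 3 to 4 higher and 0 to 2 lower in knockdown cells against mESC.

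Counts over all genes moved more. In knockdown against NTC cells the 593 higher became 260 with library totals, 370 with DESeq2, 1981 with the compared groups only and 1025 with untreated Sca1 cells as control. The 1404 lower became 908 with DESeq2 and 2433 with the compared groups only. In NTC against untreated Sca1 cells the 154 lower became 18 with library totals, 343 with no filter and 348 with the compared groups only. In knockdown cells against mESC the 1731 lower became 1071 with library totals and 1139 with DESeq2. Leaving out each library gave 111 to 1034 higher and 537 to 1793 lower in knockdown against NTC cells, 54 to 988 higher and 2 to 529 lower in NTC against untreated Sca1 cells, 1054 to 2112 higher and 791 to 2159 lower in knockdown cells against mESC, and 2109 to 2918 higher and 1668 to 2777 lower in untreated Sca1 cells against mESC. The cause of these moves was not tested.

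The description number groups the libraries exactly as the label codes do, numbers 1, 2 and 3 going with codes 12, 34 and 56. The labels do not say what it marks. Deviations from the group means correlated at 0.05 for knockdown with NTC and 0.26 for untreated Sca1 with mESC over the 2 pairs of each. With the description number as a replicate block, 1054 of all genes were higher in knockdown against NTC cells. In NTC against untreated Sca1 cells 819 were higher and 442 lower. Sparc was then called in knockdown against NTC cells (-0.36, adjusted p = 0.00217) and Postn in NTC against untreated Sca1 cells (1.26, adjusted p = 0.0229, edgeR). Counts of Eln, at 4 to 15 per library, limit what can be said of elastin.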
